A study of Homo sapiens with 12 samples.

Results

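The genes described here are 36 genes of cholesterol and fatty acid synthesis and their regulators, of 20289 genes in the count table. They were chosen by name: a row belonged to the set where its gene symbol was on the list. Each of the 36 had 1 row, and all 36 passed the filter on low counts. They were followed in U251, an established human glioblastoma cell line, over 4 groups of 3 RNA-seq libraries each. Cells carried a lentiviral short hairpin against CD44, a hyaluronan-binding receptor of the cell surface, and were given 50 µM temozolomide (knockdown temozolomide) or the solvent DMSO (knockdown DMSO) for 24 hours. Cells with a control hairpin, given as wild type for CD44 in the labels, received temozolomide (control temozolomide) or DMSO (control DMSO) for the same time. All 4 groups are therefore taken to carry a lentiviral hairpin, and each genotype stands for 1 hairpin as far as the labels say. Sample titles call the control shCtrl under DMSO and NC under temozolomide, and the count columns call both NC. Both were treated as the same control. Temozolomide is an alkylating drug used against glioblastoma. Nothing in the labels ties the 3 libraries of a group to separate cultures, so the p-values cover only the spread between these libraries, which may be technical.

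Cells make cholesterol from acetyl-CoA through mevalonate and squalene, and fatty acids from acetyl-CoA through malonyl-CoA. The transcription factors SREBP-1 and SREBP-2, encoded by SREBF1 and SREBF2, drive most of these genes. SCAP escorts them out of the endoplasmic reticulum when sterols are low, and the INSIG proteins hold them there when sterols are high. Glioma cells are known to rely on this pathway for membranes and for storage lipids.

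The libraries held between 13506946 and 24757977 estimated counts. CD44 had 320, 326 and 333 normalised counts (CPM, scaled to library size by the trimmed mean of M-values) in knockdown temozolomide cells, against 851, 808 and 804 CPM in control temozolomide cells. It had 421, 419 and 419 CPM in knockdown DMSO cells, against 1127, 1102 and 1043 CPM in control DMSO cells. The log2 fold changes of -1.33 (SE 0.03) and -1.38 (SE 0.03) had the sign the hairpin labels call for, and CD44 was still expressed. Group means of the glioma and neural markers VIM (2517 to 3842 CPM), SOX2 (275 to 399), EGFR (97.2 to 152) and NES (34.6 to 77.5) were well above 0, while GFAP was at most 1.27 CPM, S100B at most 0.319 CPM and OLIG2 at most 0.0200 CPM, so these defining astroglial and oligodendroglial markers were close to absent. Of 9 markers of other cell types, PTPRC, PECAM1, EPCAM, CDH1 and ALB had group means below 1 CPM, CD3E and MYOD1 were at 0, and the 9 summed to 37.4 to 40.6 CPM in knockdown temozolomide, 35.6 to 38.7 in control temozolomide, 51.7 to 53.8 in knockdown DMSO and 58.6 to 62.0 in control DMSO libraries. CD68 was higher in knockdown than in control cells (25.5 against 14.9 CPM under temozolomide, 24.0 against 15.6 CPM under DMSO) and CDH5 lower (12.6 against 21.6 CPM, 27.7 against 44.1 CPM). Libraries also differed in how GC-rich genes (over 60% GC) stood against GC-poor genes (under 40%): this log2 difference was -0.085 to -0.025 in knockdown DMSO libraries and 0.068 to 0.22 in control DMSO libraries, and it was -0.12 to 0.082 in knockdown temozolomide and -0.13 to 0.04 in control temozolomide libraries. Of the 6 glioma and neural markers tested, 3 rose and 2 fell in knockdown against control cells under each treatment, and 0 rose and 4 fell with temozolomide against DMSO in each cell type (median -0.361 in knockdown and -0.363 in control cells). NES, for example, was higher with the knockdown by 0.73 (SE 0.06) under temozolomide and 0.86 (SE 0.06) under DMSO, and SOX2 lower by 0.54 (SE 0.03) and 0.42 (SE 0.03). VIM was lower with the drug by 0.29 (SE 0.03) in knockdown and 0.42 (SE 0.03) in control cells. The part of these markers in the results was not tested, and GC-corrected values are given where they end a call. Exons of FADS1 and FADS2 share 490 bases on opposite strands, and those of SREBF1 and RAI1 share 556. Other exon overlaps are NPC1 with RMC1 (604 bases), ACAT2 with TCP1 (397) and MVK with MMAB (306), all on opposite strands, and CYP51A1 with an unnamed entry (2844 bases), FADS2 with FEN1 (49) and TM7SF2 with VPS51 (16), these 3 on the same strand. Whether counting used strand is not given in the sources used here, so reads in these overlaps may belong to either gene. HSD17B7 also has a closely similar pseudogene, so its counts are uncertain.

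The 250 bases before a transcription start listed by RefSeq on GRCh38.p14 are shown for 3 members that the results below turn on: the regulator SREBF2, the cholesterol enzyme DHCR7 and the desaturase SCD. Capitals mark matches, on either strand, to the sterol regulatory element TCACNCCAC and to the NF-Y motif CCAAT, and the sequences are written in the direction of transcription. They lie at chr22:41832855-41833104 (plus strand), chr11:71448394-71448643 (minus strand) and chr10:100346983-100347232 (plus strand).
SREBF2: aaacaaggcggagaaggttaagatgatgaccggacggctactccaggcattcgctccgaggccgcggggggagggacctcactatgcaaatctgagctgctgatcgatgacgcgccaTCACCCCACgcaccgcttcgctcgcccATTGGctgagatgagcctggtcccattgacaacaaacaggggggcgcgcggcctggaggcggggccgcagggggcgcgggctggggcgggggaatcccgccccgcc
DHCR7: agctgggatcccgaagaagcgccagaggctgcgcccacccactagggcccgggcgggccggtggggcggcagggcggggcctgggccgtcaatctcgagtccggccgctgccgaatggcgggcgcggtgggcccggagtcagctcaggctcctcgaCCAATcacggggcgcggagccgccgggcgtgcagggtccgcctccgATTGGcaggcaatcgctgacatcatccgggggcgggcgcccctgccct
SCD: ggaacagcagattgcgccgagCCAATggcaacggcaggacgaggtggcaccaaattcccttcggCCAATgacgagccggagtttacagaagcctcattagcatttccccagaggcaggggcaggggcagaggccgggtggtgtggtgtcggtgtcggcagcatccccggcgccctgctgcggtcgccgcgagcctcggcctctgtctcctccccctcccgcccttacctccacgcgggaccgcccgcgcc
Of 32 members with an entry in this table, SREBF2 was the only one with TCACNCCAC in the window, against 310 of 35116 promoters (0.883%). CCAAT was found in 20 of 32 members (62.5%), against 11240 of 35116 promoters (32%), and the E-box CACGTG in 4 of 32 (12.5%), against 2228 (6.34%). SREBF1 and FADS2, which are also described in depth, had neither TCACNCCAC nor CCAAT in the window used. The 35116 promoters include every listed start, so genes with several starts count more than once there, and the shares are not counted alike. For each member only the first listed start was used, and 10 of the 32 members had several. These starts are not the outermost ends of the gene spans given below: they lie 4475 bases inside the span for DHCR7, 23223 for FADS2, 109 for SCD, 26 for SREBF2 and 16 for SREBF1, so the FADS2 and DHCR7 windows lie wholly within the span. A match is a stretch of letters and does not show binding, and a window without a match says nothing of the factor.

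In untreated control cells the members covered a wide range of levels per transcript length. ELOVL5, an elongase of polyunsaturated fatty acids, led with 182 ± 4.46 FPKM (a read count divided by gene length and depth; SD, n = 3), followed by DHCR7 with 117 ± 2.57 and SCD with 95.6 ± 1.94 FPKM. FDPS (71.4 ± 2.81 FPKM), ACAT2 (69.8 ± 2.00) and FDFT1 (69.1 ± 3.65) came next and did not differ beyond their spread. The lowest were MVK (5.70 ± 1.23 FPKM), INSIG2 (5.48 ± 1.12), HSD17B7 (3.27 ± 0.648) and STARD4 (2.93 ± 0.545). Libraries of MVK and INSIG2 overlapped, as did those of HSD17B7 and STARD4. Every INSIG2 library (4.61 to 6.74 FPKM) lay above every HSD17B7 library (2.59 to 3.88 FPKM). Among the other regulators, SREBF2 stood at 37.1 ± 0.878 FPKM, SREBF1 at 28.4 ± 0.281, SCAP at 16.6 ± 0.987 and INSIG1 at 14.5 ± 1.26.

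On GRCh38 the protein-coding genes described most closely lie at chr17:17810399-17837002 (SREBF1, minus strand), chr22:41833079-41907308 (SREBF2, plus), chr11:71428193-71452868 (DHCR7, minus), chr10:100347124-100364834 (SCD, plus) and chr11:61792980-61867354 (FADS2, plus).

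The comparison of knockdown with control cells asks what lower CD44 does to these genes with and without the drug. In knockdown cells the transcription factor genes SREBF1 and SREBF2, the cholesterol enzymes DHCR7 and TM7SF2 and the desaturases SCD and FADS2 were lower by 0.30 to 0.70 on the log2 scale under both treatments. ACLY was higher under both treatments, by 0.21 and 0.15. Under temozolomide 17 of 36 members fell and 2 rose (42.3% of the 12821 genes tested were called, 20.3% lower and 22.0% higher), and the members' median log2 fold change was -0.151 against 0.00828 for all genes tested. Under DMSO 17 members fell and 3 rose (42.6% of genes were called, 21.4% lower and 21.1% higher), with a median of -0.125 against -0.00139. Libraries did not overlap for 16 members below and 3 above control under temozolomide, against 24.4% and 26.4% of genes, and for 18 below and 5 above under DMSO, against 25.5% and 25.8%. With scaling by library totals alone, members gave 15 falls and 3 rises under temozolomide and 13 falls and 6 rises under DMSO, and all genes 2126 falls and 3457 rises, and 2167 falls and 3387 rises. Calls were made at an adjusted p below 0.05 in edgeR's quasi-likelihood test, adjusted by Benjamini and Hochberg over all genes tested. Markers moved in the same comparisons, as given above (3 of 6 glioma and neural markers higher and 2 lower), and their part was not tested. In cultured cells, a lower level in bulk RNA does not tell fewer expressing cells from less RNA per cell.

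**Figure D1:**
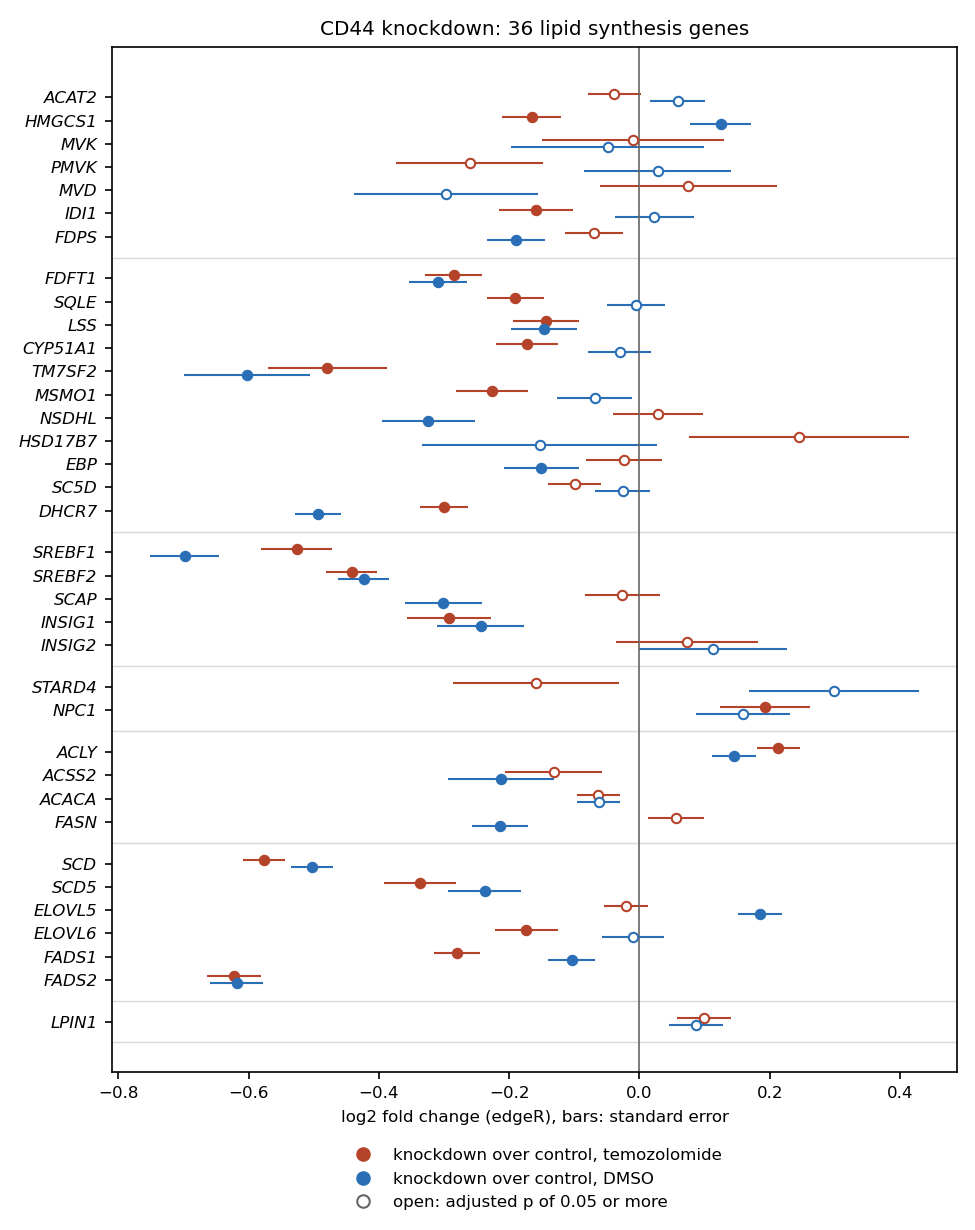
Log2 fold change of each of the 36 genes, knockdown over control, under temozolomide (red) and under DMSO (blue), with standard error bars and genes ordered by role. Filled points passed an adjusted p below 0.05, and most filled points lie left of 0, with SREBF1, FADS2, TM7SF2 and SCD farthest to the left.

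SREBF1 had 58.0, 58.6 and 51.9 CPM in knockdown temozolomide libraries, against 82.3, 80.7 and 80.3 CPM in control temozolomide libraries. Under DMSO it had 61.7, 70.5 and 72.8 CPM in knockdown libraries, against 113, 111 and 109 CPM in control libraries. Every knockdown library lay below every control library of the same treatment, and SREBF1 fell by 0.53 (SE 0.05, adjusted p = 1.02e-07) and 0.70 (SE 0.05, adjusted p = 9.51e-10) on the log2 scale. SREBF2 had 127, 127 and 119.7 CPM in knockdown temozolomide libraries, against 172, 159 and 176 CPM in control temozolomide libraries. It had 150.4, 152 and 149 CPM in knockdown DMSO libraries, against 198, 199.8 and 207 CPM in control DMSO libraries. The groups did not overlap, the falls being 0.44 (SE 0.04, adjusted p = 1.3e-08) and 0.42 (SE 0.04, adjusted p = 1.94e-08). INSIG1, itself a target of SREBP-2, fell by 0.29 (SE 0.07) under temozolomide and by 0.24 (SE 0.07) under DMSO. SCAP had 62.7, 59.7 and 53.0 CPM in knockdown temozolomide libraries, against 62.4, 56.0 and 60.4 CPM in control temozolomide libraries, which overlapped. Under DMSO it had 54.8, 54.6 and 52.7 CPM in knockdown libraries, against 67.2, 62.7 and 69.5 CPM in control libraries, with no overlap, and fell by 0.30 (SE 0.06, adjusted p = 0.000289). INSIG2 had log2 fold changes of 0.07 (95% interval -0.18 to 0.325) and 0.11 (-0.151 to 0.376), neither of which passed the test.

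**Figure D2:**
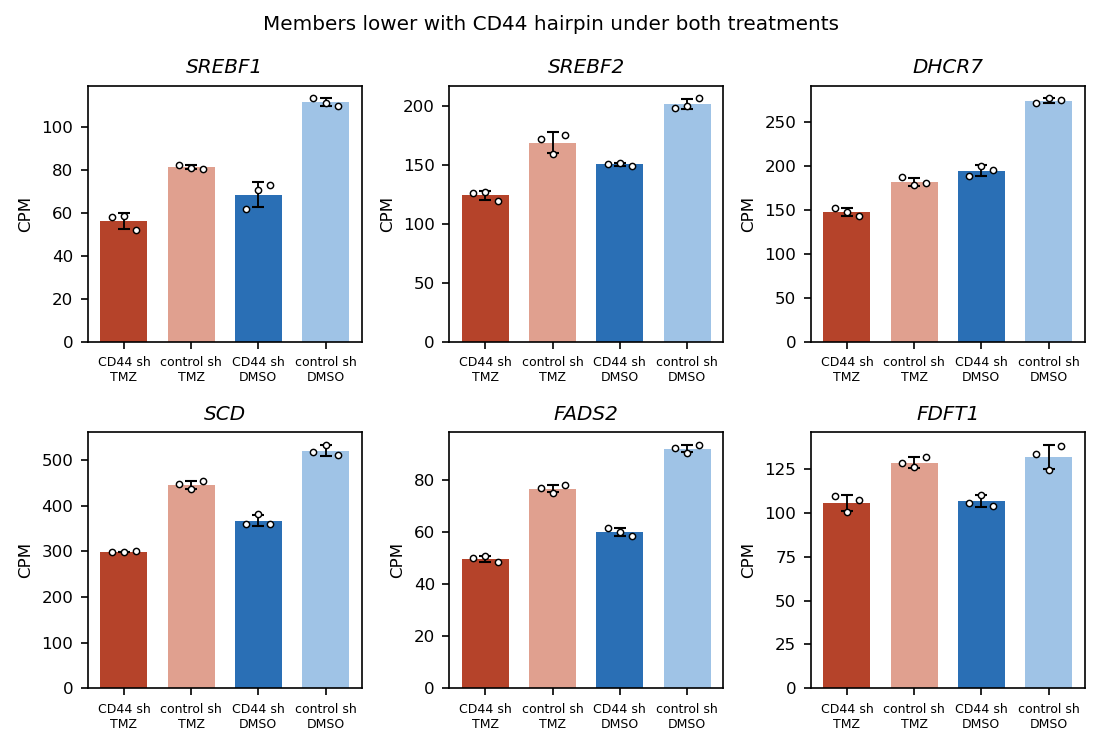
CPM of SREBF1, SREBF2, DHCR7, SCD, FADS2 and FDFT1 in each library (points), with group means (bars) and SD (error bars, n = 3), in the order knockdown temozolomide, control temozolomide, knockdown DMSO, control DMSO. In each panel the libraries of both knockdown groups lie below those of the control group of the same treatment, and in all panels but FDFT1 the libraries of each temozolomide group lie below those of its DMSO group.

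Between squalene and cholesterol, 7 of 11 enzymes fell under temozolomide (20.3% of all genes tested) and 6 of 11 under DMSO (21.4%), and none rose under either treatment in this test (22.0% and 21.1%). DHCR7, the reductase that yields cholesterol at the end of the Kandutsch-Russell branch, had 152, 148 and 143 CPM in knockdown temozolomide libraries, against 187, 178 and 180.3 CPM in control temozolomide libraries. It had 188, 200.2 and 196 CPM in knockdown DMSO libraries, against 271, 277 and 274 CPM in control DMSO libraries. The groups did not overlap, and DHCR7 fell by 0.30 (SE 0.04, adjusted p = 9.92e-07) and 0.49 (SE 0.04, adjusted p = 4.64e-10). FDFT1, the squalene synthase, had 109.6, 100.5 and 107 CPM in knockdown temozolomide libraries, against 128, 126 and 132 CPM in control temozolomide libraries. Under DMSO it had 106, 110.3 and 104 CPM in knockdown libraries, against 133, 125 and 138 CPM in control libraries. All knockdown libraries were lower, and FDFT1 fell by 0.29 (SE 0.04) and 0.31 (SE 0.04). TM7SF2, a sterol reductase with low counts, fell by 0.48 (SE 0.09, adjusted p = 0.000221) under temozolomide, with a mean of 9.27 ± 0.611 CPM in knockdown and 12.9 ± 0.266 CPM in control libraries. Under DMSO it fell by 0.60 (SE 0.10, adjusted p = 3.68e-05), with 7.45 ± 0.292 CPM in knockdown and 11.3 ± 0.506 CPM in control libraries. LSS, which closes the sterol rings, fell under both treatments by 0.14 (SE 0.05) and 0.15 (SE 0.05). The epoxidase SQLE (-0.19), the demethylase CYP51A1 (-0.17) and the methyl oxidase MSMO1 (-0.23) fell under temozolomide, and their values under DMSO were -0.01, -0.03 and -0.07 and did not pass. NSDHL (-0.32) and the isomerase EBP (-0.15) fell under DMSO, against 0.03 and -0.02 under temozolomide. HSD17B7 and SC5D did not pass in either comparison.

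Of the 7 mevalonate enzymes, 2 fell under temozolomide and none rose by this test, while 1 rose and 1 fell under DMSO. Over all genes tested 20.3% fell and 22.0% rose under temozolomide, and 21.4% fell and 21.1% rose under DMSO. HMGCS1, which makes HMG-CoA, had 72.8, 76.5 and 73.6 CPM in knockdown temozolomide libraries, against 80.0, 84.1 and 86.7 CPM in control temozolomide libraries. Under DMSO it had 85.1, 79.7 and 80.6 CPM in knockdown libraries, against 72.2, 79.2 and 73.5 CPM in control libraries. The knockdown libraries were all lower under temozolomide (-0.17, SE 0.05, adjusted p = 0.00583) and all higher under DMSO (0.12, SE 0.05, adjusted p = 0.0357). The isomerase IDI1 fell by 0.16 (SE 0.06) under temozolomide, and the farnesyl diphosphate synthase FDPS fell by 0.19 (SE 0.04) under DMSO. ACAT2, MVK, PMVK and MVD passed in neither comparison, with log2 fold changes between -0.30 and 0.08. The low counts of MVK, PMVK and MVD left wide intervals, for MVK -0.33 to 0.31 under temozolomide and -0.39 to 0.292 under DMSO.

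In the fatty acid arm the desaturases were lower and the supply of acetyl-CoA was mixed. SCD, which puts the double bond into stearoyl-CoA, had 298, 298 and 299.5 CPM in knockdown temozolomide libraries, against 447, 436 and 453 CPM in control temozolomide libraries. It had 360.4, 381 and 360.1 CPM in knockdown DMSO libraries, against 517, 533 and 510.5 CPM in control DMSO libraries. The groups were far apart relative to their spread, and SCD fell by 0.58 (SE 0.03, adjusted p = 1.03e-11) and 0.50 (SE 0.03, adjusted p = 9.16e-11). FADS2, the first desaturase of polyunsaturated fatty acid synthesis, had 50.2, 50.7 and 48.6 CPM in knockdown temozolomide libraries, against 77.1, 75.1 and 78.1 CPM in control temozolomide libraries. Under DMSO it had 61.6, 60.2 and 58.5 CPM in knockdown libraries, against 92.3, 90.5 and 93.5 CPM in control libraries. Again no library overlapped, and FADS2 fell by 0.62 (SE 0.04) under each treatment. Its neighbour FADS1 fell by 0.28 (SE 0.04) and 0.10 (SE 0.04), and the second stearoyl-CoA desaturase SCD5 by 0.34 (SE 0.06) and 0.24 (SE 0.06). ELOVL6, which elongates saturated chains, fell by 0.17 (SE 0.05) under temozolomide with overlapping libraries, and its value under DMSO was -0.01 (95% interval -0.119 to 0.099). ELOVL5 rose by 0.19 (SE 0.03) under DMSO and had -0.02 (-0.099 to 0.0574) under temozolomide. ACLY, which makes cytosolic acetyl-CoA from citrate, had 235, 238 and 235 CPM in knockdown temozolomide libraries, against 212, 199.4 and 199 CPM in control temozolomide libraries, and rose by 0.21 (SE 0.03). Under DMSO it rose by 0.15 (SE 0.03), with knockdown libraries at 244 to 246 CPM above control libraries at 218 to 224 CPM. FASN, the fatty acid synthase, fell by 0.21 (SE 0.04, adjusted p = 0.000393) under DMSO, but with a correction for GC content the value was -0.07 (adjusted p = 0.195), and it had 0.06 (-0.0439 to 0.156) under temozolomide. ACSS2, which makes acetyl-CoA from acetate, fell by 0.21 (SE 0.08) under DMSO and had -0.13 under temozolomide. ACACA, the acetyl-CoA carboxylase, had -0.06 in both comparisons and did not pass.

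Of the members outside these arms, NPC1, which exports cholesterol from lysosomes, rose by 0.19 (SE 0.07, adjusted p = 0.0299) under temozolomide and had 0.16 (95% interval -0.0076 to 0.325) under DMSO. The sterol carrier STARD4 (-0.16 and 0.30) and the phosphatidate phosphatase LPIN1 (0.10 and 0.09) passed in neither. The knockdown comparisons under the 2 treatments share no library, and 11 of the 17 members that fell in each fell in both (64.7% of each list): FDFT1, LSS, TM7SF2, DHCR7, SREBF1, SREBF2, INSIG1, SCD, SCD5, FADS1 and FADS2. Over all genes tested, 1809 fell in both, which is 69.5% of those lower under temozolomide and 65.8% of those lower under DMSO. Among rises, ACLY was shared, which is 50% of the 2 under temozolomide and 33.3% of the 3 under DMSO. Over all genes tested these shares were 67.9% and 70.7%. With a GC correction the calls of HMGCS1 (0.06, adjusted p = 0.24), LSS (-0.06, 0.299), EBP (-0.12, 0.0817), ACSS2 (-0.17, 0.0847) and FASN under DMSO were lost. HMGCS1, LSS, EBP, ACSS2 and FADS1 under DMSO each lost the call without any 1 of 4 libraries, 2 knockdown and 2 control, with log2 fold changes then of 0.10 to 0.14, -0.145 to -0.117, -0.149 to -0.117, -0.217 to -0.168 and -0.107 to -0.08. Under temozolomide IDI1 lost it without control replicate 2 or 3 or knockdown replicate 1 (-0.165 to -0.0977), LSS without control replicate 1 or knockdown replicate 2 or 3 (-0.153 to -0.104), NPC1 without control or knockdown replicate 3, control replicate 2 or knockdown replicate 1 (0.153 to 0.175), and ELOVL6 without control replicate 3 (-0.13). In all 3 limma fits of log2 FPKM the calls of CYP51A1 (-0.10, adjusted p up to 0.306), IDI1 (-0.11, 0.164), LSS (-0.09 to -0.10, 0.308), HMGCS1 (-0.13 to -0.135, 0.0578) and NPC1 (0.24 to 0.27, 0.15) under temozolomide were lost, as were those of INSIG1 (-0.17 to -0.18, 0.15), LSS (-0.11, 0.245), EBP (-0.11 to -0.12, 0.15) and ACSS2 (-0.16 to -0.18, 0.368) under DMSO. With library totals alone IDI1 (-0.12, adjusted p = 0.0888) and LSS (-0.11, 0.104) under temozolomide were lost, and LSS (-0.105, 0.111), EBP (-0.11, 0.134), ACSS2 (-0.17, 0.0983) and FADS1 (-0.06, 0.154) under DMSO.

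Temozolomide against DMSO asks what the drug does to the same genes. In cells of either hairpin SREBF1 and SREBF2, the enzyme DHCR7 and the fatty acid genes ACACA, FASN, SCD, ELOVL6 and FADS2 were lower with the drug, while IDI1 and ACSS2 were higher. In knockdown cells 11 of 36 members fell and 3 rose (22.3% of the 12821 genes tested were called, 13.2% lower and 9.05% higher), with a median log2 fold change of -0.058 against 0.0046. In control cells 13 members fell and 4 rose (27.5% of genes were called, 15.8% lower and 11.7% higher), with a median of -0.0105 against -0.00401. Libraries did not overlap for 13 members below and 5 above DMSO in knockdown cells, against 19.8% and 17.5% of genes, and for 14 below and 8 above in control cells, against 21.6% and 18.1%. With scaling by library totals alone the members' split was 8 falls and 6 rises in knockdown cells and 9 falls and 9 rises in control cells, and over all genes 1078 falls and 2533 rises, and 1295 falls and 2870 rises. The gene directions named in this paragraph were the same with that scaling, but the fall of FASN in knockdown cells did not pass with it. In knockdown cells the calls of SREBF1, ACACA, FASN, FADS2, IDI1 and ACSS2 were each lost under some alternative, as given below. The call of ACSS2 was also lost under some alternative in control cells. In the same comparisons 4 of 6 glioma and neural markers fell, and their part was not tested.

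**Figure D3:**
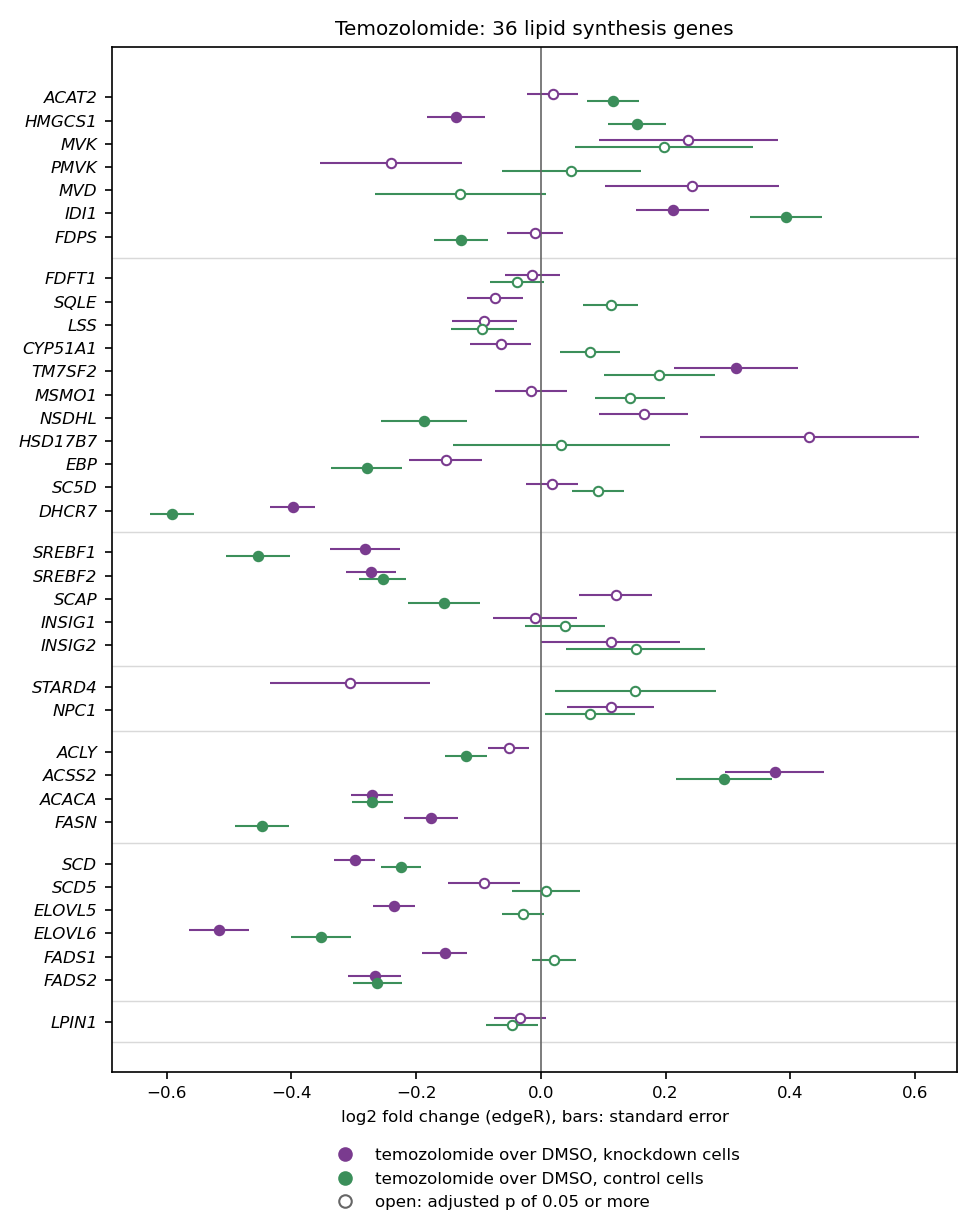
Log2 fold change of each of the 36 genes, temozolomide over DMSO, in knockdown cells (purple) and in control cells (green), with standard error bars and genes ordered by role. Filled points passed an adjusted p below 0.05. DHCR7, ELOVL6, SREBF1 and FASN lie farthest left, and IDI1 and ACSS2 are filled on the right in both cell types.

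DHCR7 had the largest fall of the 36 in control cells, at 0.59 (SE 0.04, adjusted p = 2.24e-10), and in knockdown cells it fell by 0.40 (SE 0.04, adjusted p = 7.36e-08). Its temozolomide libraries, at 143 to 152 CPM in knockdown and 178 to 187 CPM in control cells, all lay below the DMSO libraries, at 188 to 200.2 CPM in knockdown and 271 to 277 CPM in control cells. SREBF1 fell by 0.28 (SE 0.06, adjusted p = 0.000947) in knockdown and by 0.45 (SE 0.05, adjusted p = 1.35e-06) in control cells, and SREBF2 by 0.27 (SE 0.04, adjusted p = 4.24e-05) and 0.25 (SE 0.04, adjusted p = 4.69e-05). INSIG1 and INSIG2 passed in neither, and SCAP fell by 0.16 in control cells (SE 0.06, adjusted p = 0.0485) and had 0.12 in knockdown cells. IDI1 had 60.3, 65.3 and 64.7 CPM in knockdown temozolomide libraries, against 55.3, 51.6 and 57.3 CPM in knockdown DMSO libraries. In control cells it had 65.7, 70.3 and 77.2 CPM with temozolomide, against 52.4, 56.5 and 53.0 CPM with DMSO. The drug-treated libraries were all higher, and IDI1 rose by 0.21 (SE 0.06, adjusted p = 0.0129) and 0.39 (SE 0.06, adjusted p = 3.59e-05). HMGCS1 rose by 0.15 (SE 0.05) in control cells and fell by 0.14 (SE 0.05) in knockdown cells. ACAT2 rose by 0.12 (SE 0.04) and FDPS fell by 0.13 (SE 0.04) in control cells. Of the 11 enzymes after FDPS, NSDHL, EBP and DHCR7 fell in control cells, and in knockdown cells DHCR7 fell and TM7SF2 rose by 0.31 (SE 0.10, adjusted p = 0.0271).

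ELOVL6 had 117, 126 and 132 CPM in knockdown temozolomide libraries, against 176, 177 and 184 CPM in knockdown DMSO libraries. In control cells it had 130.2, 144 and 150.1 CPM with temozolomide, against 179, 184 and 177 CPM with DMSO. It was lower in every drug-treated library and fell by 0.52 (SE 0.05, adjusted p = 1.03e-07) and 0.35 (SE 0.05, adjusted p = 1.33e-05). FASN had 298, 300.4 and 276 CPM in knockdown temozolomide libraries, against 309, 344 and 335 CPM in knockdown DMSO libraries. With the control hairpin it had 292, 273 and 275 CPM under temozolomide, against 386, 393 and 369 CPM under DMSO. The fall was 0.18 (SE 0.04, adjusted p = 0.00573) in knockdown and 0.45 (SE 0.04, adjusted p = 1.67e-07) in control cells, and with library totals alone the knockdown value was -0.11 (adjusted p = 0.054). ACACA fell by 0.27 (SE 0.03) in both cell types, SCD by 0.30 (SE 0.03) in knockdown and 0.23 (SE 0.03) in control cells, and FADS2 by 0.27 (SE 0.04) and 0.26 (SE 0.04). ELOVL5 fell by 0.24 (SE 0.03) and FADS1 by 0.15 (SE 0.04) in knockdown cells, against -0.03 (95% interval -0.107 to 0.0494) and 0.02 (-0.0595 to 0.102) in control cells. ACSS2 had 29.5, 26.5 and 26.3 CPM in knockdown temozolomide libraries, against 23.6, 20.04 and 20.03 CPM in knockdown DMSO libraries. In control cells it had 30.8, 27.3 and 31.8 CPM with temozolomide, against 24.3, 23.6 and 25.6 CPM with DMSO. ACSS2 was higher in each drug-treated library and rose by 0.38 (SE 0.08, adjusted p = 0.00175) and 0.29 (SE 0.08, adjusted p = 0.00673). ACLY fell by 0.12 (SE 0.03) in control cells and had -0.05 in knockdown cells, and SCD5, NPC1, STARD4 and LPIN1 passed in neither.

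The drug comparisons in knockdown and control cells share no library. Of the falls, 8 were in both, which is 72.7% of the 11 in knockdown cells and 61.5% of the 13 in control cells, against 64.9% and 54.3% over all genes tested. IDI1 and ACSS2 were the rises in both, which is 66.7% of the 3 in knockdown cells and 50% of the 4 in control cells. Over all genes tested these shares were 45% and 34.7%. In control cells the calls of ACAT2, HMGCS1, FDPS, NSDHL, SCAP and ACLY were each lost when 1 of several libraries was left out. They were lost without any 1 of 4, 3, 6, 10, 8 and 3 libraries in that order, control DMSO replicate 1 among them for every gene. The values without those libraries were 0.0972 to 0.118, 0.127 to 0.142, -0.135 to -0.098, -0.212 to -0.153, -0.162 to -0.114 and -0.109 to -0.103. For FDPS, NSDHL and SCAP these libraries included knockdown libraries, which are not part of this comparison. In knockdown cells IDI1 was lost without DMSO or temozolomide replicate 2 (0.165 to 0.189), TM7SF2 without DMSO replicate 2 or 3 or temozolomide replicate 1 (0.259 to 0.293), and HMGCS1 without replicate 1 or 3 of either treatment (-0.153 to -0.109). With a GC correction the calls in control cells of HMGCS1 (0.08, adjusted p = 0.167), FDPS (-0.06, 0.34), NSDHL (-0.16, 0.0844), SCAP (-0.07, 0.315) and ACLY (-0.08, 0.0604) were lost, and that of TM7SF2 in knockdown cells (0.27, 0.0529). In knockdown cells the limma fits of log2 FPKM also ended the calls of SREBF1 (-0.19 to -0.20, adjusted p up to 0.11), ACACA (-0.13, 0.0847), FASN (-0.07, 0.523), FADS1 (-0.08, 0.133), HMGCS1 (-0.08, 0.315) and TM7SF2 (0.23 to 0.26, 0.121) in all 3 fits, and of FADS2 (-0.17, 0.068) and ACSS2 (0.37, 0.07) in the unfiltered fit. FADS1 (-0.09, adjusted p = 0.0534) and HMGCS1 (-0.07, adjusted p = 0.244) in knockdown cells were lost with library totals alone as well. In control cells all 3 limma fits ended the calls of ACSS2 (0.28 to 0.30, adjusted p up to 0.148), FDPS (-0.06, 0.365), NSDHL (-0.10 to -0.11, 0.335), SCAP (-0.04 to -0.05, 0.779) and ACLY (-0.04, 0.38), the last 4 of which were also lost with library totals alone (adjusted p = 0.308, 0.196, 0.261 and 0.24).

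The comparison of both interventions with neither sets knockdown temozolomide cells against control DMSO cells, and it shares its libraries with the comparisons above. In it 17 members fell and 3 rose (49.9% of genes were called, 24.5% lower and 25.4% higher), with a median log2 fold change of -0.17 against 0.0132. SREBF1 stood at 50.5% of its control DMSO mean in knockdown temozolomide cells, at 73% in control temozolomide cells and at 61.4% in knockdown DMSO cells. DHCR7 stood at 53.9%, 66.3% and 71% in the same order, FADS2 at 54.1%, 83.3% and 65.3%, SCD at 57.4%, 85.5% and 70.6%, and SREBF2 at 61.7%, 83.8% and 74.6%. Libraries did not overlap for 18 members below and 4 above control DMSO, against 26.5% and 28.3% of genes. For these 5 genes the level with both was lower than with either alone, with no overlap of libraries. The log2 fold changes with both were -0.98 (SE 0.05) for SREBF1, -0.89 (SE 0.04) for DHCR7, -0.88 (SE 0.04) for FADS2, -0.80 (SE 0.03) for SCD, -0.70 (SE 0.04) for SREBF2 and -0.53 (SE 0.05) for ELOVL6. FASN (-0.39, SE 0.04) and ACACA (-0.33, SE 0.03) fell as well, and IDI1 (0.23, SE 0.06), NPC1 (0.27, SE 0.07) and ACLY (0.09, SE 0.03) rose. SCAP (-0.18), TM7SF2 (-0.29) and ACLY lost their calls without 1 library: SCAP without control DMSO or knockdown temozolomide replicate 3 (-0.152 to -0.123), TM7SF2 without control DMSO replicate 3 or knockdown temozolomide replicate 2 (-0.268 to -0.245), and ACLY without control DMSO replicate 1 or 3 or knockdown temozolomide replicate 2 (0.0768 to 0.0971). A GC correction also ended the calls of TM7SF2 (-0.20, adjusted p = 0.0871) and SCAP (-0.10, 0.0946), and the limma fits those of FDPS (-0.09 to -0.10, adjusted p up to 0.0797), LSS (-0.11 to -0.12, 0.172), INSIG1 (-0.17 to -0.18, 0.123), TM7SF2 (-0.14 to -0.15, 0.266) and SCAP (-0.05, 0.672). FDPS (adjusted p = 0.0788), INSIG1 (0.0632), TM7SF2 (0.102) and SCAP (0.278) were also lost with library totals alone. Scaling by library totals alone shifted the median of all genes by 0.10 in this comparison and gave 13 falls and 7 rises among members, and 2039 falls and 5053 rises among all genes.

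Whether the drug response itself differed between knockdown and control cells was tested as the difference of the 2 log2 fold changes. In this test 3 of 36 members passed, 2 with a lower and 1 with a higher response in knockdown cells, against 1.05% of the 12821 genes tested (0.616% and 0.437%). HMGCS1 had a difference of -0.29 (SE 0.07, adjusted p = 0.0384), with a fall in knockdown cells and a rise in control cells. ELOVL5 had -0.21 (SE 0.05, adjusted p = 0.0426), and its libraries were at 458, 479 and 493 CPM with temozolomide, against 572, 562 and 549 CPM with DMSO in knockdown cells. In control cells ELOVL5 had 474, 494 and 483 CPM with temozolomide, against 496, 506 and 478 CPM with DMSO, so the drug-treated libraries were lower in knockdown cells and overlapped with DMSO in control cells. FASN had 0.27 (SE 0.06, adjusted p = 0.0388), the smaller fall being that in knockdown cells. With a GC correction none of these 3 passed (adjusted p = 0.162, 0.168 and 0.393), and the values were then -0.20, -0.14 and 0.13 for HMGCS1, ELOVL5 and FASN. The call of HMGCS1 was lost without any 1 of 7 of the 12 libraries (-0.312 to -0.263), that of ELOVL5 without any 1 of 9 (-0.231 to -0.179) and that of FASN without any 1 of 8 (0.228 to 0.272). The next in line were DHCR7 at 0.19 (SE 0.05, adjusted p = 0.0606), NSDHL at 0.35 (SE 0.10, adjusted p = 0.073), FADS1 at -0.18 (SE 0.05, adjusted p = 0.074) and SCAP at 0.27 (SE 0.08, adjusted p = 0.0895). For SREBF2 the difference was -0.02 (95% interval -0.147 to 0.109), for SCD -0.07 (-0.179 to 0.0322), for FADS2 0.00 (-0.138 to 0.13) and for SREBF1 0.17 (-0.00278 to 0.346), which does not show that the responses were alike.

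**Figure D4:**
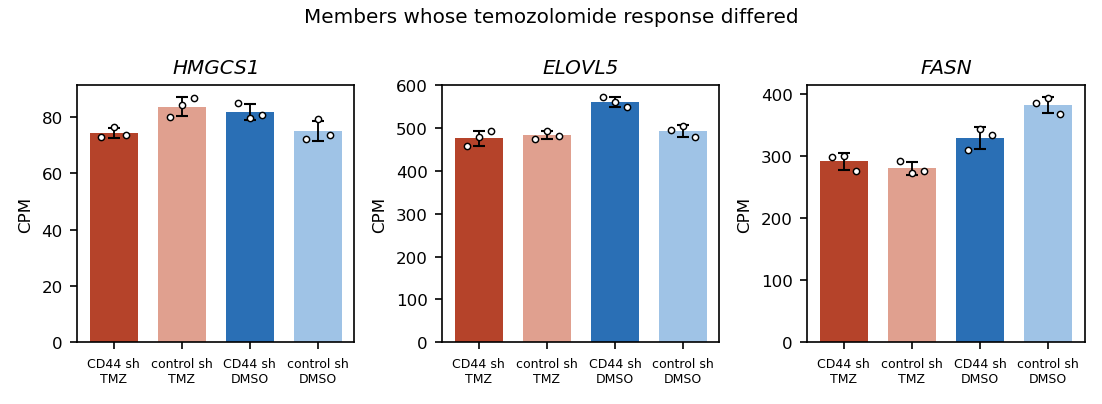
CPM of HMGCS1, ELOVL5 and FASN in each library (points), with group means (bars) and SD (error bars, n = 3), in the order knockdown temozolomide, control temozolomide, knockdown DMSO, control DMSO. HMGCS1 is lower with temozolomide than with DMSO in knockdown cells and higher in control cells, ELOVL5 is highest in knockdown DMSO cells, and FASN is highest in control DMSO cells.

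Neighbouring lipid pathways were followed in 124 further genes, of which 114 were tested. Of 16 tested genes of glycerolipid synthesis and storage, 10 rose and 0 fell in knockdown cells under temozolomide (median 0.182), and 9 rose and 3 fell under DMSO (median 0.174). Over all genes tested 22.0% rose and 20.3% fell under temozolomide, and 21.1% rose and 21.4% fell under DMSO, and the other list counts of these comparisons are to be read against the same shares. MGLL, which breaks down monoacylglycerol, rose by 2.07 (SE 0.13) and 1.86 (SE 0.12). Of 23 genes of fatty acid oxidation, 1 rose and 5 fell under temozolomide (median -0.0694) and 2 rose and 8 fell under DMSO (median -0.062), with HADH at -0.61 (SE 0.07) under temozolomide and ACADS at -0.65 (SE 0.13) under DMSO. ECI2 rose by 0.20 (SE 0.05) and 0.29 (SE 0.05). With temozolomide against DMSO, 5 of the 23 rose and 0 fell in knockdown cells (9.05% and 13.2% of all genes) and likewise 5 and 0 in control cells (11.7% and 15.8%), PPARA at 0.38 (SE 0.07) and 0.34 (SE 0.07). Of 13 genes of SREBP processing and sterol-regulated degradation, 5 rose and 2 fell in knockdown cells under temozolomide and 4 rose and 2 fell under DMSO. MBTPS1, the protease that makes the first cut in SREBP, fell by 0.18 (SE 0.04) under DMSO. Of 9 LXR factors and targets, 3 rose and 1 fell under temozolomide and 2 rose and 1 fell under DMSO, ABCA1, which exports cholesterol, by 0.52 (SE 0.07) and 0.55 (SE 0.07). Further sterol and isoprenoid genes (15 tested) gave 0 rises and 5 falls under temozolomide and 2 rises and 4 falls under DMSO, further fatty acid genes (22) gave 7 and 3, and 8 and 5, and sterol uptake and transport genes (16) gave 7 and 4, and 5 and 4.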

How the data were processed

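Poly(A) RNA of 12 U251 libraries, 4 groups of 3, was sequenced, and groups were taken from the labels. The deposited count table holds estimated counts per gene, which the authors made from their reads, with fractions in 10.7% to 12% of values per library, and the deposited FPKM table holds the same genes per kilobase and depth. RSEM, StringTie 1.3.1, HISAT2, Bowtie2 2.2.8 and fastp 0.18.0 are listed, with no roles, per the submitters' processing notes. Neither the annotation nor the genome build of the counts is named by the labels or file headers.

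Counts were rounded, filtered with filterByExpr (12821 of 20289 genes kept) and scaled by the trimmed mean of M-values. The test was edgeR 4.0.16's quasi-likelihood test in R 4.3.3, in 1 model of the 4 group means, with Benjamini-Hochberg adjustment over all genes tested and a threshold of 0.05. Standard errors are the log2 fold change divided by the root of the F statistic, and 95% intervals follow from them. The intervals use fewer degrees of freedom than the test and are therefore wider than the test implies. For NPC1 in knockdown against control cells under DMSO the interval includes 0, while the quasi-likelihood test gave an unadjusted p of 0.0394. CPM are scaled by the same factors, and FPKM served for levels between genes and for limma 3.58.1 on log2(FPKM + 1) and log2(FPKM + 0.1). DESeq2 1.42.0, other scalings and filters, a replicate block, a GC correction (a spline with 5 degrees of freedom per library on the GC content of the longest GENCODE transcript) and leaving out each library were the alternatives. On simulated counts for knockdown under DMSO, 86% of genes planted with a log2 change of 0.5 and 40% of those with 0.25 were recovered. The shares were 74% and 46% for temozolomide in control cells, and 63% and 22% for the difference of responses. Each simulation planted 200 changed genes, against 5458 genes called in the data for knockdown under DMSO, so these shares do not carry over directly. With totals of 13506946 to 24757977, 3 counts correspond to 0.121 to 0.222 CPM. Replicates differed beyond counting noise (chi-square per degree of freedom 2.14 to 5.06 over 12 pairs). Of the rows, 583 carry no gene symbol and were kept in the fit.

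Members and further lists were chosen with earlier results of these data known. All 36 members were named in every comparison, and from each further list at most the called gene with the largest change in each direction, with a mean of at least 5 CPM in its highest group; some genes of the further lists are counted and not reported by name here, and a search for genes of like pattern was not made. Gene locations come from a GRCh38 annotation joined by gene ID, and promoters from RefSeq on GRCh38.p14.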

Additional observations from a re-analysis of the deposited data

Results flagged for a closer look

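3 members differed in their response to temozolomide between knockdown and control cells, by edgeR's quasi-likelihood test of the difference itself with Benjamini-Hochberg adjustment. The difference of the log2 fold changes, knockdown minus control, was -0.2904 for HMGCS1 (adjusted p = 0.0384), 0.2706 for FASN (adjusted p = 0.0388) and -0.2061 for ELOVL5 (adjusted p = 0.0426). HMGCS1 was lower with temozolomide in knockdown cells (-0.14) and higher in control cells (0.15), FASN was lower in both (-0.18 and -0.45), and ELOVL5 was lower in knockdown cells (-0.24) with -0.03 in control cells. With a GC correction the differences were -0.20, 0.13 and -0.14 (adjusted p = 0.162, 0.393 and 0.168), and in DESeq2 they were -0.30, 0.26 and -0.21 (adjusted p = 0.00642, 0.00284 and 0.00146).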

How the results depend on the processing

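No member reversed its direction past the threshold under any of the 24 alternatives run (23 for the difference of responses). Calls kept in all of them numbered 12 of 19 for knockdown under temozolomide, 13 of 20 under DMSO, 5 of 14 and 10 of 17 for temozolomide in knockdown and control cells, 13 of 20 for both against neither, and 0 of 3 for the difference. At an adjusted p below 0.01, temozolomide in control cells gave 2187 genes (3529 at 0.05) and 11 members (17), in knockdown cells 1578 genes (2854), and the difference 13 genes (135) and 0 members (3). limma on FPKM gave 9, 9 and, unfiltered, 7 members (14 in edgeR) and, unfiltered, 1875 genes for temozolomide in knockdown cells. For the difference, no low-count filter gave 546 genes and 5 members, DESeq2 362 and 5, a GC correction 35 and 0, and the 3 limma fits 0 and 0. At an unadjusted p below 0.05, edgeR had 2279 genes and 13 members, the GC-corrected fit 1489 and 10, and limma 1650, 1646 and 1982 genes. The cause was not tested. By library totals alone, knockdown under DMSO had 3387 rises and 2167 falls over all genes, and 6 and 13 members. Leaving out 1 library gave 16 to 21 members in each knockdown comparison, 12 to 14 and 12 to 17 for temozolomide in knockdown and control cells, and 18 to 22 for both against neither. The difference ranged over 19 genes (without control temozolomide replicate 2) to 395 (without control temozolomide replicate 1) and 0 to 5 members. Same-numbered libraries of different groups did not deviate together (r -0.077 to 0.14 over 18 pairs, 6 of 12 libraries closest to their own number). A replicate block gave 19, 22, 15, 17, 20 and 3 members in the order above, and 222 genes for the difference. Depth limits MVK, PMVK, MVD, HSD17B7, TM7SF2 and STARD4, with group means of 4.24 to 13.9 CPM.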
